A study of Mus musculus with 4 samples.

Results

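The 10 genes described here take up amino acids, make them or belong to the ATF4 response, among 17097 genes named on the arrays. They were Slc7a3, Slc7a11, Phgdh, Psat1, Psph, Shmt2, Asns, Aldh18a1, Atf4 and Trib3. All probe sets of these genes were taken, 16 of 45037, and each gene is represented by its probe set of highest mean. The genes were chosen by name, with the log2 differences of these same arrays already known, among which Slc7a3 stood far from 0 in Flk1+ cells. Its differences, and those of the other members, are therefore given as a description.

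Mouse embryonic stem cells were left to differentiate spontaneously as embryoid bodies, which are aggregates grown first in hanging drops and then in suspension. On day 4 single cells were separated by antibody staining for Flk1, the VEGF receptor encoded by Kdr, which marks early mesoderm and the progenitors of blood and endothelium. There were 4 groups, Snai1 knockout (KO) Flk1+, control (F/F) Flk1+, KO Flk1- and F/F Flk1-, with 1 array each. Of the KO Flk1- sample, 1 label gives day 4 and another gives day 5. How Snai1 was deleted, and how many lines or clones stand behind each genotype, are not given in the sources used here.

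ATF4 is a transcription factor whose protein is made when the kinases of eIF2, the initiation factor that brings the first tRNA to the ribosome, sense a lack of amino acids or other stress. It raises transcription of amino acid transporters, of enzymes that make serine, glycine, asparagine and proline, and of tRNA synthetases. Because its output is set largely by translation, the Atf4 mRNA is only a partial measure of the pathway. Pluripotent mouse cells are known for a high demand for certain amino acids and for one-carbon units.

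Values are log2 expression values, so a difference of 1 is 2-fold. A gene had signal where it exceeded a floor of 3.19, which is the 40th percentile over every gene and array. A difference was called where it was at least 1 in size and either of the 2 arrays compared had signal for the gene. Each group had a single array, so replicate spread is unknown, no test was possible and the number of arrays limits the precision. For 3492 genes with several probe sets above the floor throughout, the log2 differences of the 2 highest in mean were compared. The SD of the gap between them, divided by the square root of 2, was 0.19 to 0.27 in the 4 comparisons. It stands for the spread of 1 probe set, and the gaps themselves were wider. On each array 10195 to 10302 genes were above the floor. Kdr was at 9.03 in KO Flk1+ and 8.92 in F/F Flk1+ cells, and at 3.88 in KO Flk1- and 4.55 in F/F Flk1- cells, as the sort labels say. Snai1 was below the floor on all 4 arrays, from 1.88 to 2.56, and does not check the genotype labels. For Gapdh the 3' control probe set exceeded the 5' one by 1.47 in KO Flk1+, 2.05 in F/F Flk1+, 1.99 in KO Flk1- and 1.76 in F/F Flk1- cells.

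Slc7a3 was the only member with a called difference, and it had one in each of the 4 comparisons. The other 8 members with signal differed by at most 0.88 in size, and Slc7a11 had no signal above the floor on any array. Knockout Flk1+ cells had 1 of 10 members called against control Flk1+ cells, where 1.85% of all 10655 genes tested were called and 0.873% were called higher. The share was 1.34% of 10533 genes for KO against F/F in Flk1- cells, 0.389% being higher, again with 1 member. For Flk1+ against Flk1- cells it was 3.79% of genes in the knockout, 2.17% being lower, and 2.7% in the control, 1.51% being lower, each with 1 member. The split of all calls depended on the scaling. In the knockout sort comparison 173 genes were higher and 232 lower as deposited, against 223 and 147 after centring each array on its median, and in Flk1+ cells between genotypes 93 and 104 became 120 and 84. With 1 of 10 members in each comparison, the count rests on a single gene that was chosen with its difference known, and nothing is read from it about the other members.

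**Figure D1:**
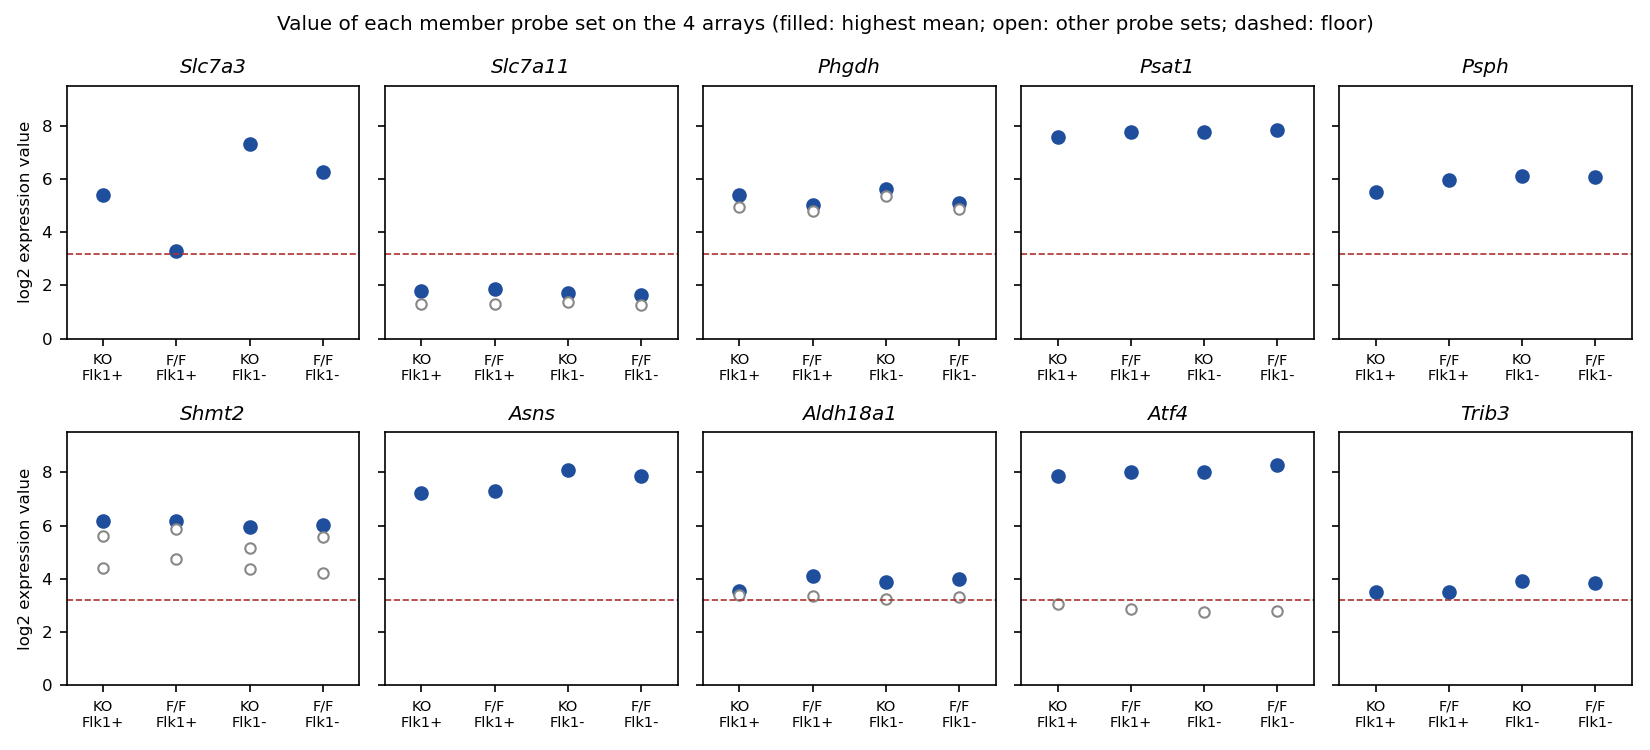
Each panel is a member gene, with the log2 expression value on the vertical axis and the 4 arrays on the horizontal axis. Filled points are the probe set with the highest mean, open points the gene's other probe sets, and the dashed line is the floor at 3.19. Slc7a3 runs between 3.29 and 7.32, Slc7a11 lies below the floor throughout, and the other filled points stay within a narrow range in their panel.

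Slc7a3 encodes a cationic amino acid transporter that carries arginine, lysine and ornithine across the plasma membrane without sodium. Its single probe set was at 5.41 in KO Flk1+ cells, 3.29 in F/F Flk1+ cells, 7.32 in KO Flk1- cells and 6.28 in F/F Flk1- cells. The order was thus KO Flk1-, F/F Flk1-, KO Flk1+ and F/F Flk1+, and the lowest value was 0.10 above the floor. Both Flk1- values were above both Flk1+ values, and within each fraction the knockout was above the control.

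Within Flk1+ cells Slc7a3 was 2.12 higher in the knockout, a 4.35-fold difference, and ranked 5 among the genes that were higher. Within Flk1- cells it was 1.04 higher, a 2.06-fold difference that only just passes the 2-fold rule, and ranked 37 among the genes that were higher. With each array centred on the median of the genes with signal, this difference was 0.99 and no longer called. In the knockout, Flk1+ cells were 1.91 below Flk1- cells, a 3.75-fold difference, and in the control they were 2.98 below, a 7.91-fold difference. The genotype difference was thus larger in Flk1+ than in Flk1- cells by 1.08. By this measure 1.58% of 10955 genes were at least 1 in size and 0.749% were so upward, and no replicate bears on it.

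Profiles were compared by distance between the 4 values of each gene, centred on the gene's own mean. Gene models and clone names among the 10955 genes with signal were passed over, also in the ranks given here. The remaining genes most like Slc7a3 were Nanog, Mreg and Utf1. Nanog, a core transcription factor of pluripotent cells, had a root mean square distance of 0.12. It was at 5.41 in KO Flk1+, 3.38 in F/F Flk1+, 7.57 in KO Flk1- and 6.57 in F/F Flk1- cells. Mreg, which encodes melanoregulin, a protein of organelle transport, was 0.19 away, with 4.92 in KO Flk1+ and 3.34 in F/F Flk1+ cells, and 7.05 in KO Flk1- and 6.04 in F/F Flk1- cells. Utf1, a chromatin factor of undifferentiated stem cells, was 0.21 away. The nearest other member was Asns at a distance of 1.19 and rank 519, followed by Phgdh at 1.31 and rank 1218. A profile of 4 values is short, and all the values come from the same arrays.

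**Figure D2:**
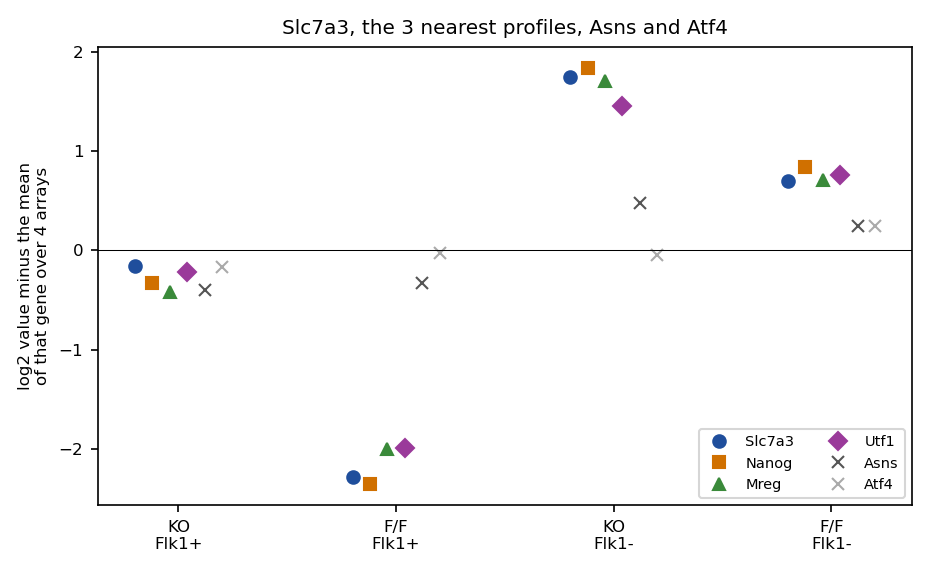
Log2 value minus the mean of the same gene over the 4 arrays (vertical axis) on each array (horizontal axis). The genes are Slc7a3, the 3 with the nearest profiles once gene models and clone names are passed over, Asns and Atf4. The points of Slc7a3, Nanog, Mreg and Utf1 lie together on every array, lowest in F/F Flk1+ and highest in KO Flk1- cells, while Asns and Atf4 lie closer to 0.

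The summed signal of pluripotent cell markers had the same order over the arrays as Slc7a3. Of 12 listed, 11 were named on the arrays and all 11 were above the floor on at least 1 array. Their summed linear signal was 386 in KO Flk1+ and 145 in F/F Flk1+ cells, and 1653 in KO Flk1- and 973 in F/F Flk1- cells. In KO Flk1+ cells 7 of the 11 were above the floor, against 5 in F/F Flk1+ cells, and in KO Flk1- cells 11 were, against 10 in F/F Flk1- cells. Between genotypes 10 of the 11 were higher in KO than in F/F Flk1+ cells and 11 in KO than in F/F Flk1- cells, values below the floor included. The single genes, picked here after their values were seen, were not all alike. Dppa5a was at 6.68 in KO Flk1+ and 4.67 in F/F Flk1+ cells, and Sox2 at 4.71 in KO Flk1+ cells and 2.71, below the floor, in F/F Flk1+ cells. Klf4 went the other way, with 4.18 in KO Flk1+ and 4.40 in F/F Flk1+ cells. The genotype difference was larger in Flk1+ than in Flk1- cells for 6 of the 11, as for Slc7a3, and smaller for 5, among them Fbxo15 (0.04 in Flk1+ and 1.15 in Flk1- cells) and Esrrb (0.81 and 1.72). Epithelial markers, which pluripotent cells share, summed to 2050 in KO Flk1+ and 1286 in F/F Flk1+ cells, and to 2598 in KO Flk1- and 2013 in F/F Flk1- cells. The part of these cells in the Slc7a3 differences was not tested. In sorted bulk samples fewer cells of a type and less RNA per cell cannot be told apart.

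Sums of markers of other cells that the fractions could hold were as follows. Endothelial and hemangioblast markers summed to 1035 in KO Flk1+ and 1103 in F/F Flk1+ cells, and to 90.3 in KO Flk1- and 126 in F/F Flk1- cells. Primitive erythroid markers summed to 47.0 in KO Flk1+, 149 in F/F Flk1+, 51.0 in KO Flk1- and 2862 in F/F Flk1- cells, so the control Flk1- array alone carried strong globin signal. Cardiac and lateral plate markers summed to 696 in KO Flk1+ and 1689 in F/F Flk1+ cells, and to 504 in KO Flk1- and 1438 in F/F Flk1- cells. Of 8 fibroblast (feeder cell) markers, Col1a2, Thy1, Lum, Dcn and Fbln2 were below the floor on all arrays. The sum of the 8 was 56.5 in KO Flk1+ and 182 in F/F Flk1+ cells, and 48 in KO Flk1- and 70.8 in F/F Flk1- cells. Endoderm markers summed to 485 in KO Flk1+ and 383 in F/F Flk1+ cells, and to 639 in KO Flk1- and 636 in F/F Flk1- cells. The order of these sums was that of Slc7a3, but the Flk1- sums were nearly equal. Of the 8, Amn was below the floor on all arrays. Among those with signal, 4 were higher and 3 lower in KO than in F/F Flk1+ cells. In Flk1- cells 3 were higher and 3 lower in the knockout. Cer1 was higher in the knockout, by 2.18 in Flk1+ and 0.70 in Flk1- cells, while Ttr had differences of -2.1 and -2.7. The part of these cell types in the members' differences was not tested either.

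Slc7a11, the other transporter among the members, encodes the light chain of the cystine and glutamate exchanger, which supplies cysteine for glutathione. Its probe set with the higher mean was at 1.78 in KO Flk1+, 1.87 in F/F Flk1+, 1.70 in KO Flk1- and 1.62 in F/F Flk1- cells. The other probe set ran from 1.24 to 1.36. All 8 values were below the floor, so no difference is given for this gene.

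The serine synthesis enzymes did not share a pattern. Phgdh, which catalyses the first step from 3-phosphoglycerate, was at 5.39 in KO Flk1+ and 5.02 in F/F Flk1+ cells, and at 5.63 in KO Flk1- and 5.09 in F/F Flk1- cells. It was 0.37 higher in the knockout in Flk1+ cells and 0.54 higher in Flk1- cells, and its second probe set was 0.16 and 0.48 higher. In Flk1- cells 6.73% of all genes differed by as much as Phgdh, and in Flk1+ cells 20.1% did. Both probe sets of Phgdh are of a kind that can also bind transcripts of related sequence.

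Psat1, the aminotransferase of the second step, hardly differed between arrays. It was at 7.59 in KO Flk1+, 7.77 in F/F Flk1+, 7.76 in KO Flk1- and 7.84 in F/F Flk1- cells. Psph, the phosphatase that releases free serine, was lowest in KO Flk1+ cells. It was at 5.49 there and at 5.97 in F/F Flk1+ cells, with 6.12 in KO Flk1- and 6.07 in F/F Flk1- cells. KO Flk1+ cells were thus 0.48 below F/F Flk1+ cells and 0.62 below KO Flk1- cells, sizes that 12.0% and 13.1% of all genes reached. The array with the lowest Psph value also had the lowest gap between the 3' and 5' probe sets of Gapdh, and of Actb, at -0.32. By their probe sets of highest mean, Psat1, Asns, Aldh18a1, Atf4 and Trib3 were lowest on that array too, while Slc7a3, Phgdh and Shmt2 were not. The part of these gaps in the differences was not tested.

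Shmt2, the mitochondrial enzyme that splits serine into glycine and a one-carbon unit, was at 6.19 in KO Flk1+, 6.16 in F/F Flk1+, 5.95 in KO Flk1- and 6.01 in F/F Flk1- cells. For its best probe set the genotype differences were 0.02 in Flk1+ and -0.05 in Flk1- cells. The 2 other probe sets, with lower means, gave -0.29 and -0.32 in Flk1+ cells and -0.40 and 0.15 in Flk1- cells. By sort, all 3 were higher in Flk1+ cells of both genotypes, by 0.05 to 0.42 in the knockout and by 0.15 to 0.52 in the control. Among members with signal, by the probe set of highest mean, Shmt2 alone was higher in Flk1+ than in Flk1- cells in both genotypes. The second probe set of Aldh18a1 was also higher, by 0.16 in the knockout and 0.04 in the control.

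Asns, which makes asparagine from aspartate and glutamine and is a direct ATF4 target, followed the sort more than the genotype. It was at 7.23 in KO Flk1+ and 7.30 in F/F Flk1+ cells, and at 8.11 in KO Flk1- and 7.87 in F/F Flk1- cells. Both Flk1+ values lay below both Flk1- values. Flk1+ cells were 0.88 below Flk1- cells in the knockout and 0.57 below in the control, sizes reached by 5.26% and 8.66% of all genes. Between genotypes Asns differed by -0.08 in Flk1+ and 0.24 in Flk1- cells, and the sign of the value in Flk1+ cells turned (0.0017) with cyclic loess.

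Aldh18a1 catalyses the first steps from glutamate to proline. Its 2 probe sets disagreed. The one with the higher mean, of a kind that can bind other transcripts, was at 3.55 in KO Flk1+, 4.11 in F/F Flk1+, 3.88 in KO Flk1- and 3.98 in F/F Flk1- cells, a difference of -0.56 between genotypes in Flk1+ cells. The other was at 3.38, 3.34, 3.22 and 3.31 in the same order, close to the floor, with a difference of 0.04.

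Atf4 itself was at 7.87 in KO Flk1+ and 8.01 in F/F Flk1+ cells, and at 7.997 in KO Flk1- and 8.28 in F/F Flk1- cells. It was thus 0.14 lower in the knockout in Flk1+ cells and 0.28 lower in Flk1- cells. With the mean of its 2 probe sets the value in Flk1+ cells was 0.03, but the second probe set, from 2.76 to 3.06, was below the floor throughout. Trib3, a pseudokinase induced by ATF4 that dampens its activity, was at 3.48 in KO Flk1+, 3.503 in F/F Flk1+, 3.90 in KO Flk1- and 3.86 in F/F Flk1- cells. Like Asns it had both Flk1+ values below both Flk1- values, by 0.42 in the knockout and 0.35 in the control, but all 4 values were close to the floor.

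Of the 9 members with signal, 3 were higher and 6 lower in KO than in F/F Flk1+ cells, with a median of -0.08. Among all genes 57.4% were lower and the median was -0.05. In Flk1- cells 5 were higher and 4 lower in the knockout, with a median of 0.04, equal to the median of 0.04 over all genes. Between Flk1+ and Flk1- cells 8 of the 9 were lower in the knockout (median -0.33, all genes -0.08) and 7 in the control (median -0.10, all genes -0.01), and the same 7 were lower in both. Among all genes 58.6% were lower by sort in the knockout and 51.7% in the control. Centring moved the median of all genes in the knockout sort comparison to 0.09. With this centring Atf4 was 0.02 higher in KO Flk1+ than in KO Flk1- cells, where the deposited values give -0.13.

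**Figure D3:**
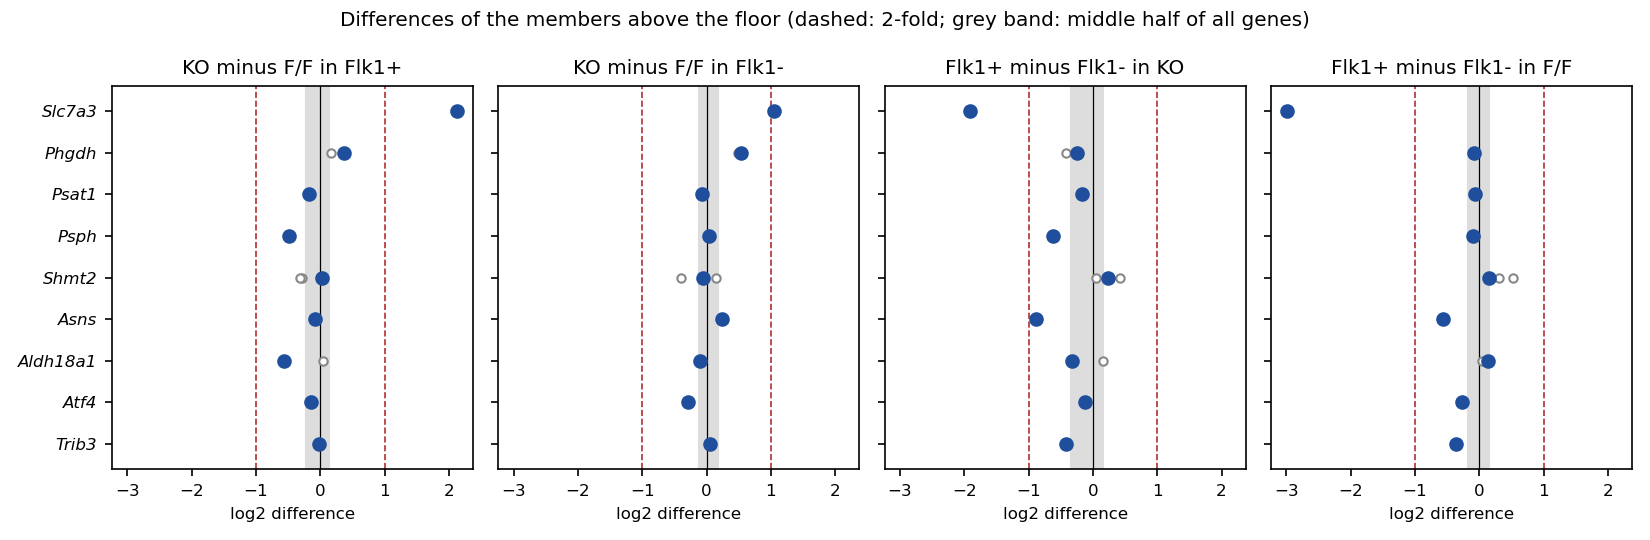
Log2 difference (horizontal axis) of each member above the floor (rows) in the 4 comparisons (panels). Filled points are the probe set with the highest mean, open points other probe sets above the floor, dashed lines mark 2-fold and the grey band is the interquartile range of all genes. Slc7a3 alone lies beyond the dashed lines, at 2.12 and 1.04 between genotypes and at -1.91 and -2.98 by sort.

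The C/EBP-ATF response element, through which ATF4 acts with C/EBP proteins, was looked for in RefSeq promoters of build GRCm38.p6. The window ran from 250 bases before to 50 bases after the transcript start. The letters searched were TGATGNAA on either strand (TTNCATCA read on the other), and the matches listed do not overlap each other. Of the members, 9 had promoters in the table, 10 in all, and 3 genes had a match, against 3.97% of all 32851 promoters. Those of Asns, Slc7a11 and Trib3 are shown because they hold these letters, in capitals, on the gene's own strand and 5′ to 3′. The stretches are chr6:7693219-7693248 (minus strand) for Asns, chr3:50443637-50443695 (minus strand) for Slc7a11 and chr2:152344031-152344054 (minus strand) for Trib3.
Asns: ttgggtcccagccacaTGATGAAActtccc
Slc7a11: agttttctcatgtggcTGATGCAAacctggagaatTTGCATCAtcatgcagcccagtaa
Trib3: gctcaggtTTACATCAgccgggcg

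The Asns match begins 23 bases before the start, the 2 of Slc7a11 begin 66 and 47 bases before it, and that of Trib3 begins at base 15 of the transcript. A match is a string of letters, not a bound site. Of these 3 genes, Asns and Trib3 were lower in Flk1+ than in Flk1- cells of both genotypes, and Slc7a11 was below the floor. The promoters of Phgdh, Psat1, Psph, Shmt2, Aldh18a1 and Atf4 in the table held no match in this window. Slc7a3 had no entry in the table.

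No other plasma membrane amino acid transporter among those listed reached a 2-fold difference with signal. Of 40 listed, 38 were named and 16 to 18 had signal in a comparison, and 0 of them were called in any of the 4. Their median difference between genotypes was 0.06 in Flk1+ and 0.20 in Flk1- cells, against -0.05 and 0.04 for all genes. Of all genes 1.34% to 3.79% were called in the 4 comparisons. Given these small shares, nothing is read from this count about the list, nor from the counts of 0 in the lists below. The farthest apart was Slc7a7, the light chain of an exporter of cationic amino acids. It was at 4.55 in KO Flk1+ and 3.57 in F/F Flk1+ cells, and at 5.16 in KO Flk1- and 4.26 in F/F Flk1- cells, 0.97 and 0.90 higher in the knockout. Its order over the 4 arrays was that of Slc7a3 except that KO Flk1+ lay above F/F Flk1- cells. Slc38a4, a placental and hepatic neutral amino acid transporter, went the other way. It was at 6.81 in KO Flk1+ and 7.71 in F/F Flk1+ cells, and at 6.42 in KO Flk1- and 7.17 in F/F Flk1- cells, and its second probe set had differences of -0.88 and -0.51.

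Slc7a1, the widely expressed cationic transporter, and Slc7a5 with its heavy chain Slc3a2, which carry large neutral amino acids, were chosen here after their values were seen. Slc7a1 was at 5.07 in KO Flk1+ and 5.20 in F/F Flk1+ cells, and at 4.68 in KO Flk1- and 4.81 in F/F Flk1- cells. Its Flk1+ values were thus above its Flk1- values, by 0.39 in each genotype, where Slc7a3 had the opposite order. Slc7a5 was 0.54 higher in the knockout in Flk1+ cells and 0.51 higher in Flk1- cells, and Slc3a2 was 0.33 and 0.18 higher. By sort both ran the way of Slc7a3, with Flk1+ minus Flk1- differences of -0.49 in the knockout and -0.53 in the control for Slc7a5, and of -0.17 and -0.32 for Slc3a2.

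Of 24 other targets of ATF4 and the integrated stress response, 21 were named and 17 or 18 had signal. The median genotype difference was 0.01 in Flk1+ and 0.00 in Flk1- cells, against -0.05 and 0.04 for all genes. By sort 10 of 17 were higher in KO Flk1+ than in KO Flk1- cells, with a median of 0.09 against -0.08 for all genes. In the control 12 of 17 were lower in Flk1+ cells, with a median of -0.12 against -0.01. Jdp2, a transcription factor of the AP-1 group, was called between genotypes in Flk1+ cells, where 1.85% of all genes were. It was at 2.53 in KO and 3.65 in F/F cells. The deposited values differed by -1.12, and the KO value was below the floor. Vldlr, a lipoprotein receptor, was called by sort in the control, where 2.7% of all genes were. It was 1.05 higher in Flk1+ than in Flk1- control cells, and its 5 probe sets ran from 0.60 to 1.41 there. Between genotypes the 5 were between 0.91 and 1.47 lower in KO than in F/F Flk1+ cells. The one with the highest mean, at -0.997, was not called.

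Of 20 cytosolic tRNA synthetases, 17 were named and all 17 had signal, and 0 were called, where 1.34% to 3.79% of all genes were. In KO Flk1+ cells 14 of the 17 were lower than in F/F Flk1+ cells, with a median of -0.13, while in Flk1- cells 12 were higher in the knockout, with a median of 0.11. The range was -0.31 to 0.39 in Flk1+ and -0.07 to 0.30 in Flk1- cells. All genes leaned the same ways, with 57.4% lower in the first comparison and 43.1% in the second. Rars and Farsb, the synthetases for arginine and a phenylalanine subunit, were farthest apart, 0.56 and 0.52 lower in KO Flk1+ than in KO Flk1- cells. The probe sets of Farsb disagreed in sign.

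Genes of glycine, one-carbon and threonine metabolism had the largest median between genotypes in Flk1- cells among these 8 lists. Of 24 listed, 14 were named and 12 had signal, and all 12 were higher in KO than in F/F Flk1- cells, from 0.05 to 0.76, with a median of 0.32 against 0.04 for all genes. In Flk1+ cells the median was 0.05. By sort it was -0.50 in the knockout and -0.18 in the control, against -0.08 and -0.01 for all genes. Slc25a32, the mitochondrial folate carrier, was called once, as lower in KO Flk1+ than in KO Flk1- cells. In that comparison 3.79% of all genes were called and 2.17% were called lower. Slc25a32 was at 3.04 in KO Flk1+ cells, below the floor, and 4.35 in KO Flk1- cells. It was at 3.33 in F/F Flk1+ and 3.75 in F/F Flk1- cells. Its probe set is of a kind that can bind other transcripts. Gldc, the glycine decarboxylase, and Gcat, which acts in threonine breakdown, were chosen after their values were seen. Gldc was at 6.24 in KO Flk1+ and 5.48 in F/F Flk1+ cells, and at 7.11 in KO Flk1- and 6.35 in F/F Flk1- cells. Gcat was 0.54 and 0.58 higher in the knockout in the 2 fractions. Both had the order of Slc7a3 within each fraction and each genotype, at smaller sizes.

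Proline, arginine and glutamate genes had 0 called among 11 or 12 with signal, where 1.34% to 3.79% of all genes were called. Their medians between genotypes were 0.06 in Flk1+ and 0.15 in Flk1- cells, where all genes had -0.05 and 0.04. Asl, which releases arginine in the urea cycle, was at 6.32 in KO Flk1- and 5.44 in F/F Flk1- cells, and at 5.49 in KO Flk1+ and 5.35 in F/F Flk1+ cells. Ass1, the enzyme before it, had values around the floor, 3.06 in KO Flk1+ and 2.64 in F/F Flk1+ cells, and 3.56 in KO Flk1- and 3.28 in F/F Flk1- cells.

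The eIF2 kinases, phosphatase subunits and eIF2B, upstream of ATF4, had 0 of 12 genes with signal called, where 1.34% to 3.79% of all genes were. Their medians between genotypes were -0.10 in Flk1+ and -0.05 in Flk1- cells, set against the same -0.05 and 0.04. Eif2b2, a subunit of the exchange factor eIF2B, was 0.58 higher in KO than in F/F Flk1+ cells, with 0.66 by its second probe set. Impact, which restrains the eIF2 kinase that senses uncharged tRNA, was 0.42 lower in KO than in F/F Flk1+ cells. ER chaperones and other genes of the unfolded protein response, a pathway that shares the eIF2 branch, had 0 of 19 called, beside the same shares. Of the 19, 14 were higher in KO than in F/F Flk1+ cells, with a median of 0.13, where 57.4% of all genes were lower. Creld2, a chaperone-like ER protein, was 0.61 higher and Dnajb9, an ER cochaperone, 0.47 lower. In Flk1- cells 15 of 18 genes of this list with signal were higher in the knockout, with a median of 0.09 against 0.04 for all genes. By sort 14 of 19 were higher in Flk1+ cells in the knockout (median 0.12) and 12 of 18 in the control (median 0.06).

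NRF2 targets and regulators were described because NRF2 also drives Slc7a11. Between genotypes 0 of 12 or 13 with signal were called, where 1.85% of all genes were in Flk1+ and 1.34% in Flk1- cells. By sort, Gclm, Gclc and Gsr, which make and recycle glutathione, were called in the knockout, where 2.17% of all genes were at least 2-fold lower. Gclm was at 4.57 in KO Flk1+ and 5.74 in KO Flk1- cells, and at 4.45 in F/F Flk1+ and 5.61 in F/F Flk1- cells, lower by 1.17 in the knockout and by 1.16 in the control. Gclc was 1.11 lower in the knockout and 0.60 lower in the control, and Gsr 1.07 and 0.90 lower. By the second probe set of Gsr, with a lower mean, the differences were -0.99 in the knockout, short of 2-fold, and -0.41 in the control. In all, 11 of 13 genes with signal were lower in KO Flk1+ than in KO Flk1- cells (median -0.54). In the control 10 of 12 were lower in Flk1+ cells (median -0.17). The genes counted include Nfe2l2, which encodes NRF2, with sort differences of -0.82 in the knockout and 0.06 in the control. Of all genes 58.6% were lower in the knockout comparison (median -0.08) and 51.7% in the control (median -0.01). Slc7a11, below the floor, cannot be placed among them.

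**Figure D4:**
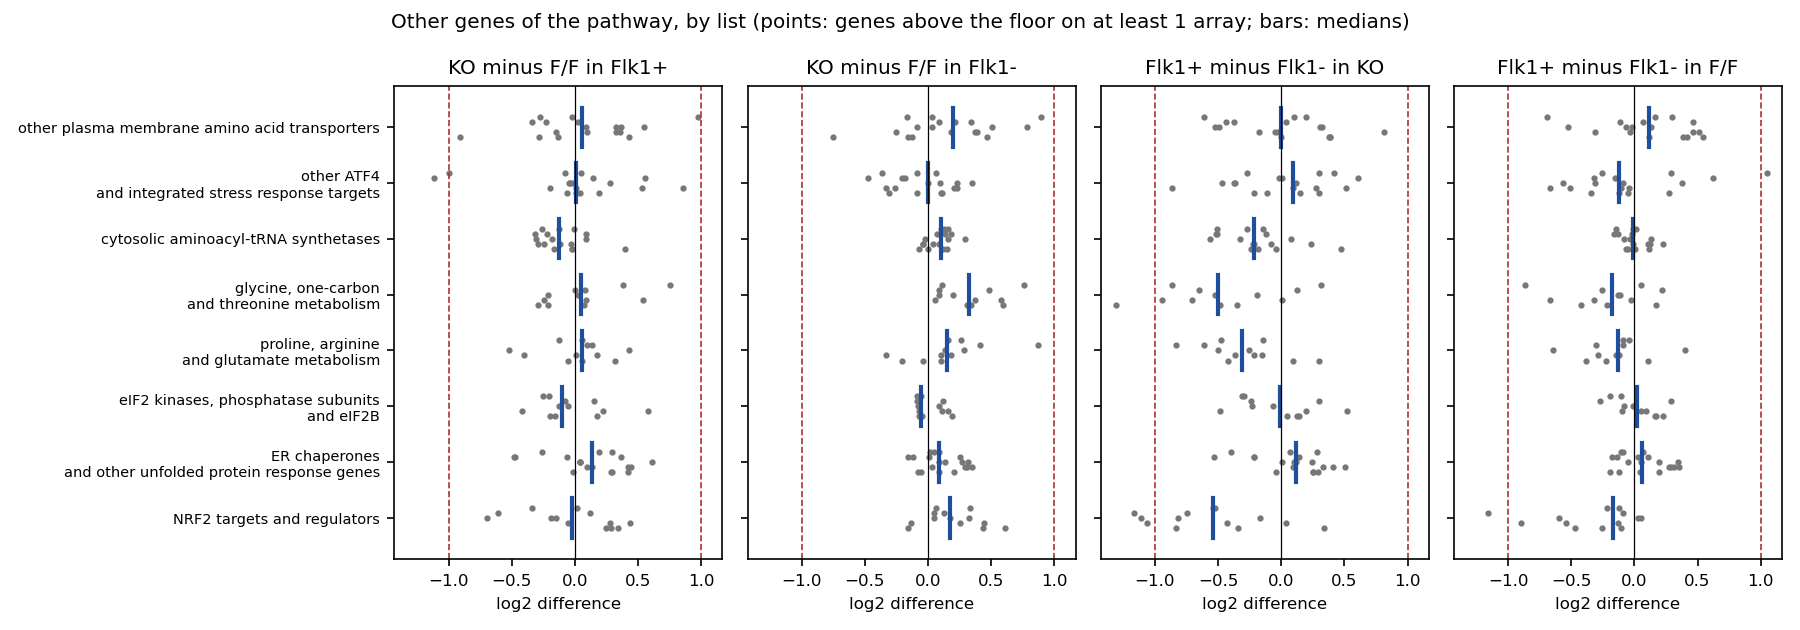
Log2 difference (horizontal axis) of each gene above the floor on at least 1 array (points) in 8 lists (rows) and 4 comparisons (panels). Bars are medians over the genes with signal in the comparison and dashed lines mark 2-fold. Most points lie inside the dashed lines. The medians farthest from 0 are in the knockout sort comparison, those of NRF2 targets and regulators (-0.54) and of glycine and one-carbon genes (-0.50).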

How the data were processed

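The values used were the log2 expression values that the authors deposited for 45141 probe sets, made with RMA and limma per the submitters' processing notes, which give no version or role. Each array started from 50 ng of RNA, amplified as cDNA, per the labels' protocols. No further normalization was applied. Leaving aside 104 control probe sets, the annotation used here gave 1 gene for 28898, none for 15588, and more than 1 for 551, left unnamed. Genes were represented by the probe set with the highest mean, and the floor, the 2-fold rule and the differences were as given above. Only the code that applies the rule was tested on simulated data.

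The members and all lists were chosen with earlier results of these data known. Named genes were all members, those called in a list or its 2 farthest apart, and the 3 nearest profiles of any member spanning at least 1. For the nearest profiles gene models and clone names were passed over. Gpt2, Ppp1r15a, Mthfd2 and Pycr1 stand in 2 lists each. Sums of markers are sums of linear values.

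Alternatives were 1.5-fold and 3-fold as the size rule, the median or nothing as the floor, quantile normalization again, median centring, cyclic loess (limma 3.58.1, span 0.3, 3 rounds) and 3 other choices of probe set. Raising lower values to the floor was an alternative chosen after seeing the data.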

Additional observations from a re-analysis of the deposited data

Results flagged for a closer look

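The following members had a genotype difference (KO minus F/F) of opposite sign in Flk1+ and Flk1- cells, which with 1 array per group was not tested. The difference in Flk1+ minus that in Flk1- cells was -0.52 for Psph (-0.48 and 0.04), -0.31 for Asns (-0.08 and 0.24), 0.078 for Shmt2 (0.02 and -0.05) and -0.068 for Trib3 (-0.02 and 0.05). For Aldh18a1 the sort difference (Flk1+ minus Flk1-) had opposite signs in the genotypes, -0.33 in the knockout and 0.13 in the control, a gap of -0.46 that was likewise not tested. Its second probe set had 0.16 and 0.04, with no opposite sign.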

How the results depend on the processing

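No paired analysis was possible because each group has 1 array. Slc7a3 has 1 probe set and was above the floor on all 4 arrays. Another choice of probe set, no floor or raising low values to the floor could thus change neither its values nor its calls. It was the member called in every comparison under every alternative run, with these exceptions. For KO minus F/F in Flk1- cells 0 members were called at 3-fold, where 0.40% of all genes were. In the same comparison 0 were called after centring on the median, where 1.39% of all genes were and Slc7a3 was at 0.99. At 3-fold 0 were called in the difference of differences, where 0.23% of all genes were. At 1.5-fold 3 members were called for Flk1+ minus Flk1- in the knockout, Slc7a3, Psph and Asns, where 14.95% of all genes were. The Slc7a3 values ranged from 2.12 to 2.21 and from 0.99 to 1.04 between genotypes in Flk1+ and Flk1- cells, and by sort from -1.91 to -1.75 in the knockout and from -2.98 to -2.94 in the control. Of 315 member values under alternatives, 6 moved by at least the SD defined above for 1 probe set, which was 0.29 for the difference of differences. All 6 were of Aldh18a1 or Shmt2 and under another choice of probe set. Such a choice could not move the 5 members with 1 probe set, and raising low values could move none of the 9 with signal. Among the 360 list medians 1 moved by that much. It was the median of amino acid transporters in Flk1- cells, at -0.02 with the probe set of largest spread. Medians of near 0 changed sign in several lists. No called member changed sign. After centring, 119 genes were higher and 52 lower in the difference of differences, against 82 and 91 as deposited. A single probe set of Slc7a3, single arrays and its control Flk1+ value near the floor limit its sizes.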
